A study of Mus musculus with 11 samples.

Results

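The 34 genes described here encode enzymes that methylate transfer RNA or ribosomal RNA with S-adenosylmethionine, together with their partner subunits. They were taken as a list of names from general knowledge, with the enzymes that make 5-methylcytosine left out, and not by any measured value. Earlier results of these data were, however, known when the list was chosen. All 34 were found among the 55416 gene identifiers of the table, and all 34 were among the 12909 genes tested. The cells were EC4, an established mouse liver cancer line, cultured for 24 h at 10 or 200 µM methionine in DMEM, after growth in DMEM with 200 µM. Libraries were labelled MYC high (genotype MYC on) or MYC low (genotype MYC off), and the labels used here do not say how MYC was switched. MYC high at 200 µM had 2 libraries (replicates 2 and 3) and MYC low at 200 µM, MYC high at 10 µM and MYC low at 10 µM had 3 each. All groups share 1 cell line, and no label says that replicates came from separate cultures, so p-values here reflect the spread among these libraries alone, and that spread may be technical. In such bulk RNA, fewer cells of a kind and less RNA per cell cannot be told apart.

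Methyl groups on tRNA shape its folding, its stability and the way the anticodon reads a codon, and methyl groups on rRNA are added while ribosomal subunits are built in the nucleolus or the mitochondrion. Each transfer uses a molecule of S-adenosylmethionine, which cells make from methionine. Several of these enzymes act as pairs in which a catalytic subunit needs a partner that does not itself transfer the methyl group, and MYC is known as an activator of ribosome production genes.

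Each library held 10858936 to 13085689 reads on genes. The mouse Myc transcript stood at 2089 ± 106 normalized counts (SD, n = 2) in MYC high and 1136 ± 31.3 (SD, n = 3) in MYC low libraries at 200 µM. The values at 10 µM were 336 ± 39.2 and 336 ± 13.5 (SD, n = 3 each), so it separated the labels at 200 µM only, and every MYC direction at 10 µM rests on the labels. Reads of a human MYC transgene, were there such a gene in EC4, would map to mouse genes only in part. Of 7 hepatocyte and fetal liver markers, Krt8, Krt18 and Afp passed the filter of a mean of 10 normalized counts, while the mean of Alb was 0 and those of Apoa1, Ttr and Hnf4a stayed under 1 in each group. No fibroblast or endothelial marker passed the filter, and their summed levels were 3.18 to 25.3 and 0.904 to 4.07 normalized counts. Of 5 macrophage and leukocyte markers Ptprc was at 0 in every library, whereas Csf1r and Cd68 were present and the sum of the list ran from 263 to 286 in MYC high libraries at 200 µM up to 931 to 974 in MYC low libraries at 10 µM. The part of these marker levels in the results below was not tested.

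Most of the methyltransferase genes had their highest level in MYC high cells with ample methionine. The highest group mean was that of MYC high cells at 200 µM for 21 of the 34 genes and that of MYC high cells at 10 µM for 9, and the lowest was that of MYC low cells at 10 µM for 16. The matching shares over all genes were not computed, so these counts describe the members alone. Per kilobase of exon, Trmt112 (840 normalized counts), Ftsj3 (325), Emg1 (241) and Mettl5 (215) had the highest mean levels over all libraries, and Trmt61b (19.7), Tfb1m (19.6) and Trmt12 (16.9) the lowest. At 200 µM, MYC high libraries were higher than MYC low for 24 genes and lower for 2 (Trmt2b and Mrm2), and 8 genes did not pass at an adjusted p of 0.05 with limma. These shares of 70.6% higher and 5.88% lower stand beside 36.8% and 37.6% of all 12909 genes. In either direction 26 members passed (background 74.4%), and the groups did not overlap for 28 (background 81.4%). The members thus stood apart from all genes in direction and not in how many passed. This direction was not particular to them. Of 48 other modification genes described below, 68.8% were higher and 8.33% lower. Among 14 further methyltransferases and partners, 35.7% were higher and 28.6% lower. The median log2 difference of the members was 0.62 and that of all genes tested was 0.00. Differences of at least 2-fold numbered 7 of 34 (Trmt61a, Mrm3, Wdr4, Mrm1, Mettl1, Trmt61b and Mettl6), against a background of 18.9% of genes that passed with such a difference.

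At 10 µM methionine, 21 genes were higher in MYC high libraries, 1 was lower (Trmt10a) and 12 did not pass, against a background of 35.7% higher, 35.8% lower and 71.5% in either direction. The groups did not overlap for 23 members (background 73.7%). Their median log2 difference was 0.30, and none of the 34 reached 2-fold, where 14.3% of all genes did. The comparisons at 200 and 10 µM share no library, and 18 members were higher in both, against 23.2% of all genes. Lower methionine lowered 22 members in MYC high cells and raised 6 (background 37.9% lower, 37.9% higher and 75.8% either way), with a median log2 difference of -0.44 and no overlap of the groups for 29 (background 81.5%). In MYC low cells 11 fell, 7 rose and 16 did not pass (background 29.9% lower, 29.4% higher and 59.4% either way), with a median of -0.07 and no overlap for 17 (background 65.5%). Changes of at least 2-fold were found in 8 members in MYC high cells (background 22.1%) and in 1, Mettl1, in MYC low cells (background 5.56%). In the plot of MYC differences most filled points at 200 µM lie to the right of those at 10 µM.

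**Figure D1:**
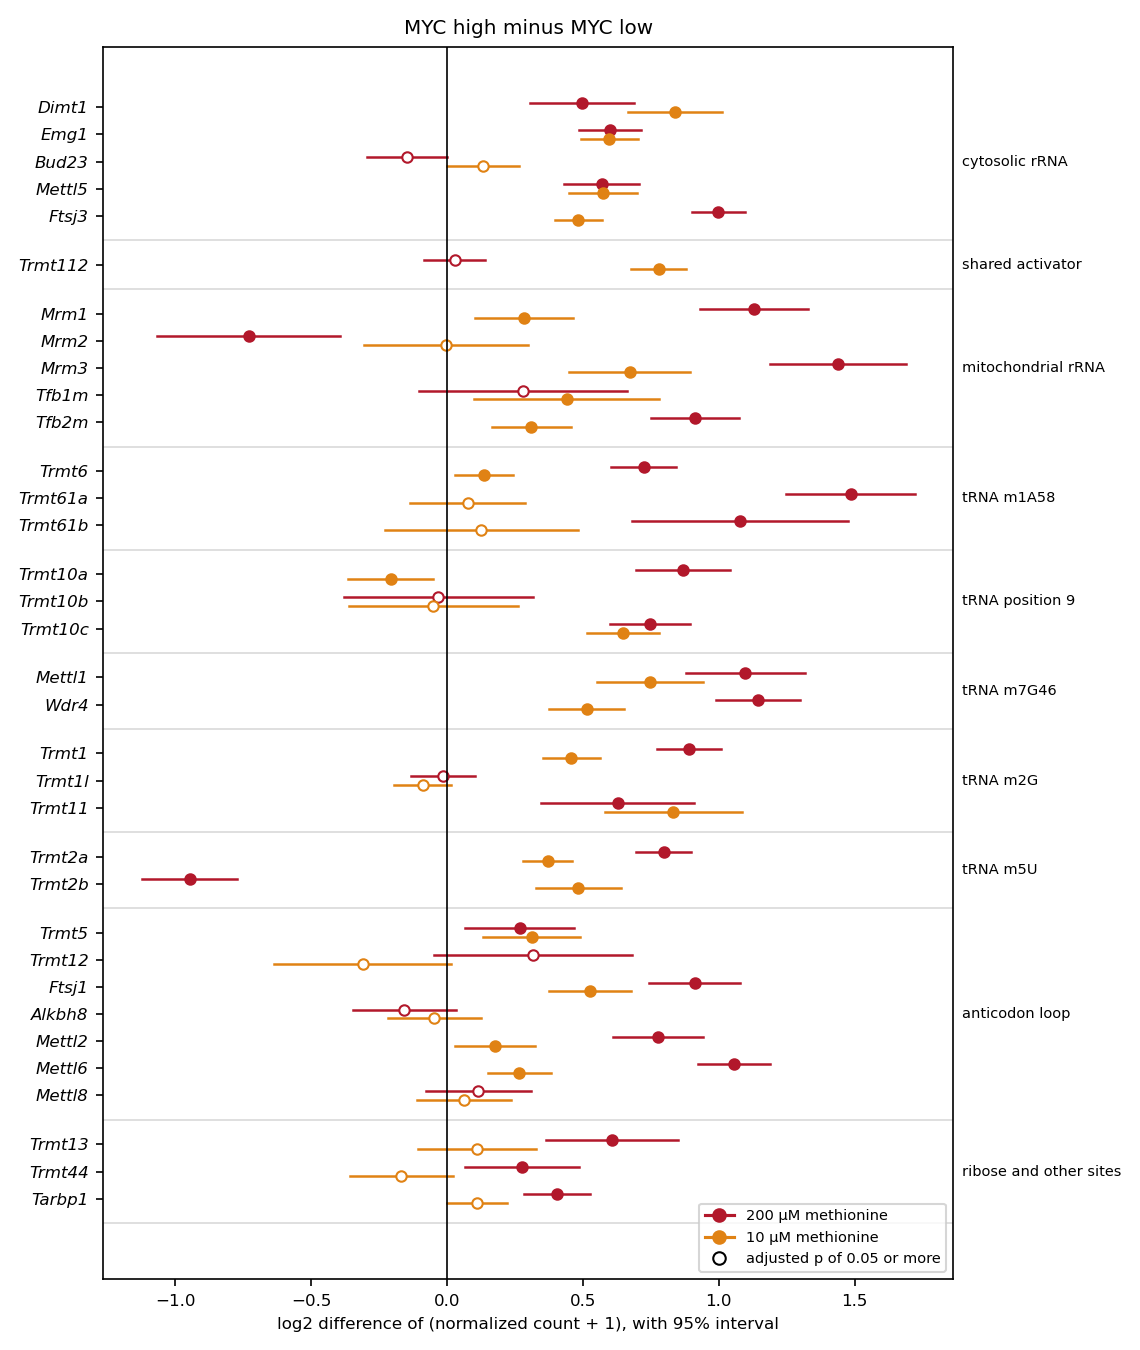
Log2 difference of MYC high minus MYC low libraries (x axis, on the scale of log2 of the normalized count plus 1) for each of the 34 genes (y axis, grouped by role), at 200 µM (red) and 10 µM methionine (orange). Bars are 95% intervals and open points did not pass an adjusted p of 0.05. Of the genes, 24 were higher and 2 lower at 200 µM, and 21 higher and 1 lower at 10 µM.

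Promoter windows of RefSeq on GRCm38.p6, 250 bases upstream of a start, were held for 30 of the 34 genes (not Trmt6, Trmt1, Trmt12 and Mettl2). They were searched on both strands for CACGTG, the E-box word that MYC with MAX is known to bind, and for the variant CACGCG, which cannot overlap it. The build is not that of the counts. CACGTG was in 2 of the 35 member windows (5.71%), those of Trmt10a and Trmt61b, where 6.02% of all 32851 windows and 8.46% of the windows of tested genes held it. CACGCG was in 4 member windows (11.4%), those of Mettl5, Tarbp1, Trmt2a and another start of Trmt61b, against 7.62% of all and 14.3% of those of tested genes. The stretches below are the 60 bases around a match, shown as examples of each word beside genes whose MYC differences are given below, with the searched words in capitals. They are, in order, chr3:138143739-138143798 on the plus strand, chr17:71598762-71598821 on the minus strand, chr16:18248823-18248882 on the plus strand and chr2:69885680-69885739 on the minus strand.
Trmt10a: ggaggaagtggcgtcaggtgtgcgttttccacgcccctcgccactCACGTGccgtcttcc
Trmt61b: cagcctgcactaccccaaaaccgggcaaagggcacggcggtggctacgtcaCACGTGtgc
Trmt2a: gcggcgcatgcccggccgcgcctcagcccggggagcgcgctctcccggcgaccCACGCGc
Mettl5: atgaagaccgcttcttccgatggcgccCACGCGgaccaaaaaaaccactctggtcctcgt
Trmt10a and Trmt61b, with the E-box word, were higher in MYC high libraries at 200 µM and not at 10 µM. Of the genes with the variant, Trmt2a and Mettl5 were higher in both media, and Tarbp1 and Trmt61b passed as higher at 200 µM but not at 10 µM. Trmt61a, whose MYC difference at 200 µM was the largest of the members, had neither word in its window. A match is a description of the letters only.

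Of the enzymes of the small cytosolic ribosomal subunit, Emg1, Mettl5 and Dimt1 were higher in MYC high libraries in both media, and Bud23 did not pass in either. Low methionine raised Emg1 and Bud23 and lowered Dimt1 in both MYC states, and the changes of Mettl5 did not pass. Emg1 methylates a pseudouridine of the small-subunit rRNA. It stood at 1275 and 1162 normalized counts in the MYC high libraries at 200 µM and at 812, 808 and 788 in the MYC low ones. At 10 µM it stood at 1390, 1649 and 1433 in MYC high and 1009, 983 and 954 in MYC low libraries, so that MYC high lay above MYC low in each medium and 10 µM above 200 µM in each MYC state, with no overlap. The log2 MYC difference was 0.60 at 200 µM (SE 0.057, adjusted p = 6.93e-12) and 0.60 at 10 µM (SE 0.051, adjusted p = 4.33e-13). Low methionine raised Emg1 by 0.29 in MYC high (adjusted p = 2.50e-05) and by 0.29 in MYC low cells (adjusted p = 6.59e-06), and the 95% interval of the difference between these responses ran from -0.16 to 0.15.

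Mettl5, which makes an N6-methyladenosine in the small-subunit rRNA and is stabilised by Trmt112, had the same MYC pattern without the methionine response. Its counts were 588 and 668 in MYC high and 410, 442 and 416 in MYC low libraries at 200 µM, and 670, 626 and 637 against 437, 446 and 415 at 10 µM. The log2 MYC difference was 0.57 in each medium (SE 0.068 and 0.061). The response to low methionine was 0.04 in MYC high (95% interval -0.10 to 0.18) and 0.03 in MYC low cells (-0.09 to 0.16), and neither passed. Bud23, which makes 7-methylguanosine in the same rRNA and also pairs with Trmt112, went the other way round. Its MYC differences did not pass (log2 -0.15 at 200 µM, adjusted p = 0.0689, and 0.13 at 10 µM, adjusted p = 0.0663, which passed with edgeR at 0.0412). Low methionine raised it from 323 and 324 to 483, 491 and 498 in MYC high cells (log2 0.60, SE 0.072) and from 346, 343 and 386 to 439, 447 and 457 in MYC low cells (log2 0.32, SE 0.065). The MYC difference at 200 µM passed at an adjusted p of 0.0451 without replicate 2 of MYC low at 200 µM. Bud23 shares 12.9% of its exonic bases with Dnajc30 on the opposite strand. The MYC differences of Dnajc30 were -0.54 at 200 µM and -0.30 at 10 µM. Under the MYC high label Dnajc30 rose by 0.47 with low methionine, and under the MYC low label its value of 0.23 did not pass.

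Dimt1, the dimethyladenosine transferase of the small-subunit rRNA, fell with low methionine in both states. It stood at 334 and 334 in MYC high and 254, 224 and 231 in MYC low libraries at 200 µM, and at 265, 256 and 279 against 147, 146 and 153 at 10 µM. The log2 MYC difference was 0.50 at 200 µM (SE 0.095) and 0.84 at 10 µM (SE 0.085), and the fall was -0.32 in the MYC high and -0.67 in the MYC low state. Dimt1 was the 1 member that fell in both states with the larger fall in MYC low cells (interaction 0.34, adjusted p = 0.0202), a call lost at an adjusted p of 0.0644 without replicate 1 of MYC low at 200 µM and of 0.0554 with DESeq2. Dimt1 shares 31.9% of its annotated exonic bases with Kif2a on the opposite strand, whose own methionine responses were -0.54 and -0.30. Ftsj3 methylates riboses of the precursor of the large-subunit rRNA and was second to Trmt112 in level per kilobase. Its counts were 2119 and 2100 against 1074, 1027 and 1066 at 200 µM, which did not overlap (log2 0.998, SE 0.048, adjusted p = 1.69e-20). With 10 µM they were 1531, 1586 and 1665 against 1178, 1160 and 1081 (log2 0.48, SE 0.043). Low methionine lowered Ftsj3 by -0.41 in MYC high cells and raised it by 0.11 in MYC low cells. The rise was lost at an adjusted p of 0.112, 0.131 and 0.0935 without replicate 2 of MYC low at 200 µM, replicate 1 of MYC low at 10 µM and replicate 2 of MYC low at 10 µM.

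Trmt112, the small activator protein that Trmt11, Alkbh8, Bud23 and Mettl5 share, rose with low methionine in MYC high cells. Its counts were 970 and 895 in MYC high and 933, 868 and 941 in MYC low libraries at 200 µM, which overlap (log2 0.03, 95% interval -0.08 to 0.14). At 10 µM they were 1367, 1528 and 1392 against 855, 842 and 798, so that these MYC high libraries stood above all 8 others. The log2 MYC difference at 10 µM was 0.78 (SE 0.049, adjusted p = 9.78e-17), the rise in MYC high cells was 0.61 (SE 0.055), and the change in MYC low cells was -0.14 (SE 0.049, adjusted p = 0.0182). The small fall in MYC low cells was lost without replicate 1 (adjusted p = 0.068) or replicate 3 (0.0813) of MYC low at 200 µM, and without replicate 3 of MYC low at 10 µM (0.105). The interaction was 0.75 (adjusted p = 5.20e-11). Trmt112 shares 33.2% of its exonic bases with Prdx5 on the opposite strand, whose own difference was 0.65 for low methionine in MYC high cells and -0.16 for MYC at 10 µM. The clients did not follow it as a group. Bud23 rose with low methionine in MYC high cells, whereas the changes of Mettl5, Trmt11 (0.03, adjusted p = 0.839) and Alkbh8 (0.07, adjusted p = 0.497) there did not pass. In MYC low cells at 10 µM the count of Bud23 was 0.514 to 0.572 of that of Trmt112, above the 0.321 to 0.411 of all other libraries.

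**Figure D2:**
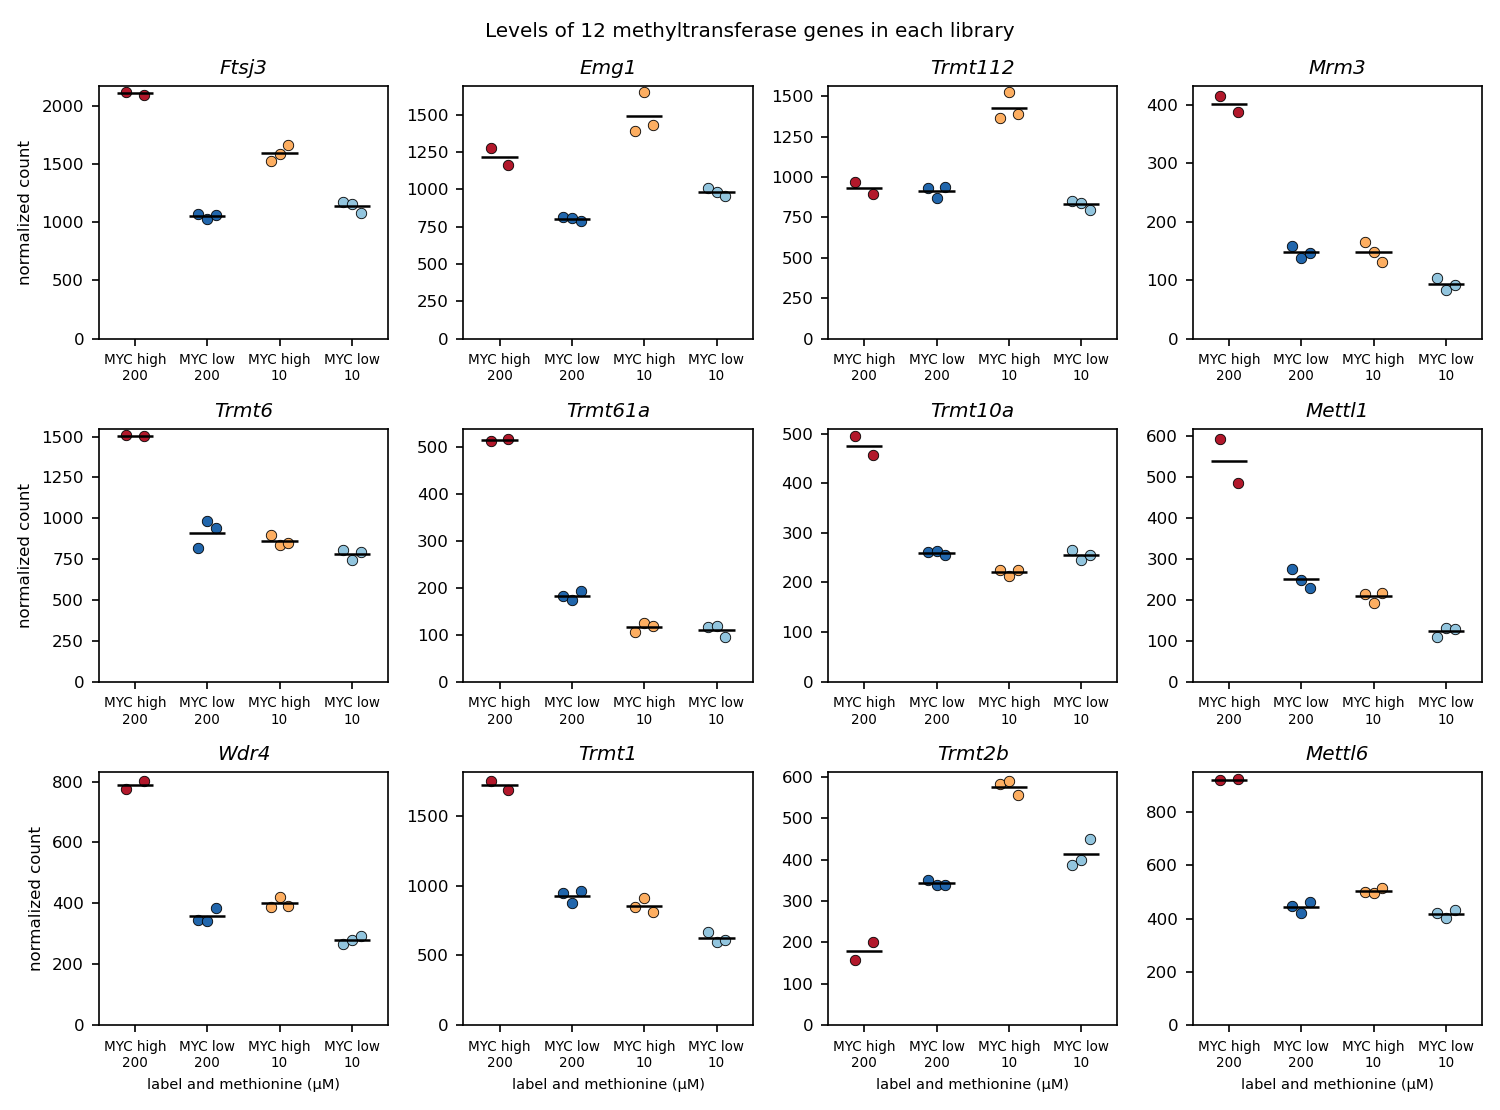
Normalized counts (y axis, from 0) of 12 of the genes in each library, by label and methionine concentration (x axis). Points are libraries and lines are group means. Trmt61a, Mrm3, Mettl1, Wdr4, Trmt1 and Mettl6 stand highest in MYC high libraries at 200 µM, Trmt2b stands lowest there, and Trmt112 and Emg1 stand highest in MYC high libraries at 10 µM.

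The ribose methyltransferases of the mitochondrial large-subunit rRNA split. Mrm1 and Mrm3 were higher in MYC high libraries, and Mrm2 was lower at 200 µM. Mrm3 stood at 416 and 388 in MYC high and 159, 138 and 146 in MYC low libraries at 200 µM, 2.71-fold higher (log2 1.44, SE 0.123, adjusted p = 4.36e-13). With low methionine it had 166, 148 and 132 against 103, 83.5 and 91.7 (log2 0.67, SE 0.110). The MYC high libraries at 10 µM thus overlapped MYC low libraries at 200 µM, and the fall with low methionine was -1.44 in the MYC high and -0.67 in the MYC low state, a difference that passed (interaction -0.77, adjusted p = 1.33e-04). Mrm1 stood at 457 and 457 against 205, 199 and 223 at 200 µM (log2 1.13, SE 0.099) and at 206, 255 and 238 against 186, 182 and 204 at 10 µM (log2 0.28, SE 0.088). It fell by -0.98 in MYC high cells, and the change of -0.13 in MYC low cells did not pass (adjusted p = 0.211).

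Mrm2 stood at 51.4 and 55.2 in MYC high libraries at 200 µM, below all 9 other libraries, which ran from 70.3 to 95.2. Its log2 MYC difference was -0.73 at 200 µM (SE 0.166, adjusted p = 1.75e-04) and -0.00 at 10 µM (95% interval -0.30 to 0.30). It rose with low methionine in MYC high cells by 0.60 (adjusted p = 0.00154). Tfb2m, a relative of the dimethyladenosine transferase Tfb1m that serves as a mitochondrial transcription initiation factor, stood at 582 and 575 against 313, 332 and 278 at 200 µM (log2 0.91, SE 0.080) and at 361, 345 and 355 against 287, 292 and 276 at 10 µM (log2 0.31, SE 0.072). Its fall with low methionine was -0.71 in MYC high cells (adjusted p = 4.88e-10), and in MYC low cells the value was -0.10 (adjusted p = 0.211), which passed at an adjusted p of 0.0492 without replicate 3 of MYC low at 200 µM. Tfb1m, which dimethylates the mitochondrial small-subunit rRNA, had few counts, from 50.6 to 93.2 over all libraries. It passed as higher at 10 µM only (log2 0.44, adjusted p = 0.0195), and this was lost without replicate 2 of MYC high (0.0913) or replicate 1 of MYC low at 10 µM (0.137). At 200 µM the difference of 0.28 (adjusted p = 0.18) passed without replicate 3 of MYC high (0.0472).

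The complex that makes 1-methyladenosine in the T loop of cytosolic tRNA changed more in its catalytic than in its partner subunit. Trmt61a, the subunit that binds S-adenosylmethionine, stood at 512 and 517 in MYC high libraries at 200 µM and at 182, 174 and 194 in MYC low ones. The counts at 10 µM were 105, 125 and 119 in MYC high and 116, 120 and 96.1 in MYC low libraries, which overlap and lie below both groups at 200 µM. The MYC difference was 2.80-fold at 200 µM (log2 1.49, SE 0.117, adjusted p = 4.20e-14) and did not pass at 10 µM (log2 0.08, 95% interval -0.14 to 0.29). The fall with low methionine was 4.40-fold in the MYC high (log2 -2.14, SE 0.117, adjusted p = 8.94e-19) and 1.66-fold in the MYC low state (log2 -0.73, SE 0.104). This fall in MYC high cells was the largest change of any member in any of the 4 pairwise comparisons.

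Trmt6, the partner that helps the complex hold its tRNA, stood at 1507 and 1501 in MYC high and 817, 982 and 940 in MYC low libraries at 200 µM (log2 0.72, SE 0.059). With low methionine it stood at 895, 835 and 851 against 807, 748 and 793 (log2 0.14, SE 0.053, adjusted p = 0.021), a call lost without replicate 1 of MYC high (0.106) or replicate 2 of MYC low at 10 µM (0.119). It fell by -0.81 in the MYC high and by -0.22 in the MYC low state. The ratio of Trmt61a to Trmt6 counts was 0.340 and 0.344 in MYC high libraries at 200 µM, 0.223, 0.177 and 0.206 in MYC low libraries at 200 µM, and 0.117 to 0.160 in the 6 libraries at 10 µM. The 3 ranges do not overlap, as the plot of ratios shows, and the ratio was given no test because it was chosen with the values in view. Trmt61b, the mitochondrial relative, had few counts (97.1 and 111 in MYC high libraries at 200 µM, and 37.9 to 54.7 in the other 9). It was higher by 1.08 at 200 µM (SE 0.196, adjusted p = 6.86e-06), its difference at 10 µM did not pass (0.13, adjusted p = 0.532), and it fell by -1.13 in MYC high cells. Trmt61b shares 13.9% of its exonic bases with Spdya, whose own log2 fall there was -1.28.

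The Trmt10 enzymes, which methylate the purine at the ninth position of tRNA, each had a pattern of their own. Trmt10a, a nuclear and cytosolic enzyme, stood at 495 and 457 in MYC high and 261, 264 and 255 in MYC low libraries at 200 µM, and at 226, 213 and 225 against 266, 246 and 255 at 10 µM. It was thus higher by 0.87 at 200 µM (SE 0.086, adjusted p = 1.90e-11) and lower by -0.21 at 10 µM (SE 0.077, adjusted p = 0.0163). The lower level at 10 µM was lost with DESeq2 (0.0608) and without replicate 2 of MYC high (0.0567) or replicate 1 of MYC low at 10 µM (0.0695). Its levels in MYC low cells changed by -0.03 with methionine (95% interval -0.18 to 0.13), against -1.10 in MYC high cells (interaction -1.08, adjusted p = 3.45e-10).

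Trmt10b, a close relative, fell with low methionine in both MYC states. It stood at 98.3 to 116 in the 5 libraries at 200 µM and at 53.3 to 79.4 in the 6 libraries at 10 µM. The fall was -0.78 in the MYC high (SE 0.171, adjusted p = 1.16e-04) and -0.76 in the MYC low state (SE 0.153, adjusted p = 5.64e-05), and the interval of the difference between them was -0.48 to 0.45. The MYC differences did not pass (-0.03 at 200 µM and -0.05 at 10 µM). Trmt10c, a subunit of mitochondrial RNase P, stood at 652 and 700 against 416, 401 and 389 at 200 µM and at 450, 504 and 444 against 300, 293 and 298 at 10 µM. Both differences passed (0.75, SE 0.073, and 0.65, SE 0.065), and it fell by -0.54 in the MYC high and -0.44 in the MYC low state. Its RNase P partners Hsd17b10 (0.47) and Prorp (0.19, adjusted p = 0.0695) did not fall in MYC high cells. In MYC low cells both partners fell, by -0.20 each (adjusted p = 0.003625 and 0.03995).

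Mettl1 and Wdr4, which together make 7-methylguanosine in the variable loop of tRNA, were both higher in MYC high libraries and both fell with low methionine in each state. Mettl1, the catalytic subunit, stood at 592 and 486 in MYC high and 274, 249 and 229 in MYC low libraries at 200 µM. Low methionine gave 215, 191 and 218 against 110, 131 and 130, and no group of the 4 overlapped another. The MYC difference was 1.10 at 200 µM (SE 0.107, adjusted p = 1.51e-11) and 0.75 at 10 µM (SE 0.096, adjusted p = 1.05e-08). Low methionine lowered it by -1.36 in the MYC high and by -1.01 in the MYC low state, the largest fall of a member in MYC low cells. Wdr4, the scaffold that holds the tRNA, stood at 776 and 803 against 345, 343 and 383 at 200 µM (log2 1.14, SE 0.075) and at 386, 420 and 392 against 268, 279 and 292 at 10 µM (log2 0.51, SE 0.067). It fell by -0.98 in the MYC high and by -0.35 in the MYC low state. Wdr4 shares 10.8% of its exonic bases with AC166172.3 on the opposite strand. The differences of AC166172.3 were 0.91 for MYC at 200 µM and -0.84 for low methionine in MYC high cells. Wdr4 counts were 1.26 to 1.67 times those of Mettl1 in the 5 libraries at 200 µM and 1.80 to 2.43 times in the 6 at 10 µM.

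**Figure D3:**
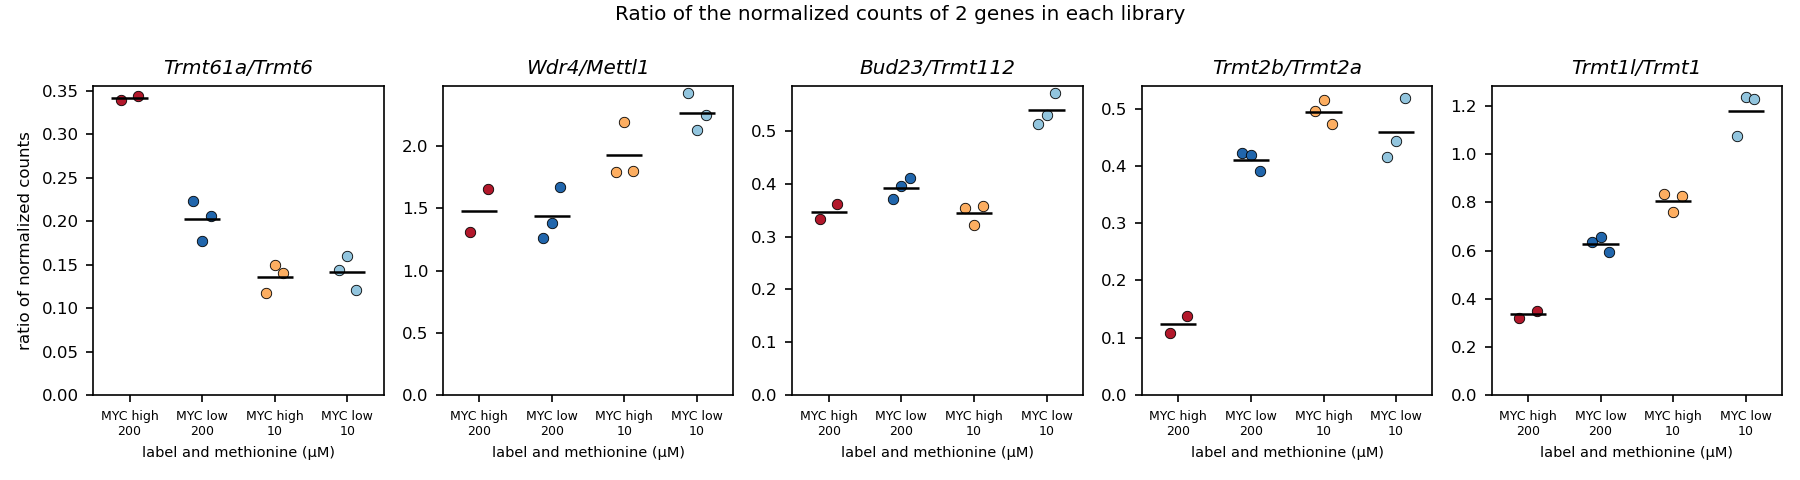
Ratio of the normalized counts of 2 genes (y axis, from 0) in each library, by label and methionine concentration (x axis). Points are libraries and lines are group means. The ratio of Trmt61a to Trmt6 is 0.340 and 0.344 in MYC high libraries at 200 µM and at most 0.160 at 10 µM, and that of Trmt2b to Trmt2a is 0.108 and 0.138 in MYC high libraries at 200 µM and at least 0.391 elsewhere.

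Trmt1, which makes dimethylguanosine at the hinge between the D arm and the anticodon arm, and its paralog Trmt1l moved apart. Trmt1 stood at 1757 and 1687 in MYC high and 948, 877 and 963 in MYC low libraries at 200 µM, and at 850, 909 and 812 against 668, 594 and 609 at 10 µM. It was higher by 0.89 (SE 0.058, adjusted p = 2.06e-16) and 0.46 (SE 0.052) and fell by -1.01 in the MYC high and -0.57 in the MYC low state. Trmt1l stood at 562 to 601 in the 5 libraries at 200 µM and at 670 to 750 in the 6 at 10 µM. It rose by 0.26 in MYC high (adjusted p = 1.50e-04) and 0.33 in MYC low cells (adjusted p = 8.74e-07), and its MYC differences did not pass (-0.01 and -0.09). The ratio of Trmt1l to Trmt1 counts ran from 0.320 and 0.351 in MYC high libraries at 200 µM to 1.08 to 1.24 in MYC low libraries at 10 µM. Trmt11, the catalytic partner of Trmt112 for a methylguanosine of the D arm, was higher in MYC high libraries in both media. No methionine response of Trmt11 passed, with a 95% interval of -0.25 to 0.31 in MYC high cells. It stood at 181 and 145 against 109, 97.2 and 107 at 200 µM (log2 0.63, SE 0.139) and at 154, 179 and 165 against 94.9, 105 and 79.4 at 10 µM (log2 0.83, SE 0.124).

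The enzymes that make 5-methyluridine in the T loop went opposite ways with the MYC label when methionine was ample. Trmt2b, the mitochondrial enzyme, stood at 157 and 201 in MYC high libraries at 200 µM, below MYC low libraries at 350, 338 and 340 (log2 -0.95, SE 0.086, adjusted p = 2.22e-12). At 10 µM the order was turned round, with 584, 589 and 556 in MYC high and 388, 400 and 450 in MYC low libraries (log2 0.48, SE 0.077, adjusted p = 7.92e-07). Low methionine raised Trmt2b 3.24-fold in MYC high cells (log2 1.70, SE 0.086, adjusted p = 1.01e-19) and less in MYC low cells (log2 0.27, SE 0.077, adjusted p = 0.00326). The interaction of 1.43 (SE 0.116, adjusted p = 2.90e-13) was the largest positive one of the members. Trmt2a, the cytosolic enzyme, stood at 1443 and 1456 against 828, 806 and 868 at 200 µM (log2 0.80, SE 0.050) and at 1177, 1144 and 1175 against 932, 904 and 867 at 10 µM (log2 0.37, SE 0.045). It fell by -0.31 in MYC high cells and rose by 0.11 in MYC low cells (adjusted p = 0.0311). That rise was lost without replicate 1 (0.0734) or 2 (0.138) of MYC low at 200 µM and without replicate 1 (0.146) or 2 (0.0723) of MYC low at 10 µM. Trmt2a shares 15.5% of its exonic bases with Dgcr8, whose own differences were 0.31 for MYC at 200 µM and -0.45 at 10 µM. With low methionine Dgcr8 changed by -1.04 in MYC high and by -0.27 in MYC low cells.

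Among the 7 enzymes of the anticodon loop, Mettl6, Mettl2, Ftsj1 and Trmt5 were higher in MYC high libraries in both media, and Alkbh8, Mettl8 and Trmt12 did not pass in either. Mettl6, which makes 3-methylcytidine in serine tRNAs, stood at 920 and 923 against 447, 422 and 461 at 200 µM (log2 1.06, SE 0.065, adjusted p = 3.06e-17). With low methionine it stood at 499, 497 and 513 against 420, 403 and 431 (log2 0.27, SE 0.058), and its fall with low methionine was -0.87 in MYC high cells against -0.08 in MYC low cells (interaction -0.79, adjusted p = 6.11e-10). Mettl2, which makes the same base in threonine and arginine tRNAs, stood at 744 and 736 against 450, 449 and 396 at 200 µM (log2 0.78, SE 0.082). In 10 µM methionine it stood at 288, 361 and 324 against 284, 288 and 285, groups that overlap (log2 0.18, adjusted p = 0.0304). That call was lost with DESeq2 (0.0607) and without replicate 2 (0.255) or 3 (0.0562) of MYC high or replicate 1 (0.0637) or 3 (0.0602) of MYC low at 10 µM. Mettl2 fell by -1.19 in the MYC high and -0.59 in the MYC low state. The mitochondrial relative Mettl8 stood at 224 to 327 over all libraries, and no comparison passed. Its MYC difference at 200 µM (0.11, adjusted p = 0.278) passed with quantile normalization (0.0462). Its response in MYC low cells (0.17, adjusted p = 0.0758) passed without replicate 2 of MYC low at 200 µM (0.042).

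Ftsj1, which methylates riboses in the anticodon loop, stood at 499 and 526 against 263, 269 and 285 at 200 µM (log2 0.91, SE 0.083) and at 403, 432 and 374 against 300, 262 and 277 at 10 µM (log2 0.53, SE 0.074). It fell by -0.35 in MYC high cells, and in MYC low cells the value was 0.04 (adjusted p = 0.693). Its partner Wdr6 went far the other way, from 188 ± 7.27 (SD, n = 2) at 200 µM to 1058 ± 43.2 (SD, n = 3) at 10 µM in MYC high cells (log2 2.49, adjusted p = 8.79e-30). Trmt5, which makes 1-methylguanosine beside the anticodon, stood at 222 and 234 against 199, 191 and 178 at 200 µM (log2 0.27, adjusted p = 0.0151) and at 242, 246 and 238 against 198, 204 and 183 at 10 µM (log2 0.31, adjusted p = 0.00204). The call at 200 µM was lost without replicate 3 of MYC high (0.103) or replicate 3 of MYC low (0.0626). Trmt12, which acts in wybutosine synthesis, stood at 58.1 to 100 over all libraries and fell in MYC high cells (-0.60, adjusted p = 0.00303). Its MYC difference at 10 µM (-0.31, adjusted p = 0.0835) passed without replicate 2 of MYC low at 10 µM (0.0129). Alkbh8, which completes a modified wobble uridine, was the steadiest member, with group means of 284 to 317. All its 95% intervals for the 4 pairwise comparisons lay between -0.35 and 0.26. Its MYC difference at 200 µM (-0.16, adjusted p = 0.127) passed without replicate 1 of MYC low at 200 µM (0.0287).

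Trmt13, Trmt44 and Tarbp1, which methylate riboses of tRNA outside the anticodon loop, were higher in MYC high libraries at 200 µM and did not pass at 10 µM. Trmt13 stood at 193 and 222 against 128, 142 and 136 at 200 µM (log2 0.61, SE 0.120) and at 149, 149 and 151 against 130, 131 and 155 at 10 µM (0.11, adjusted p = 0.358). It shares 13.4% of its exonic bases with Lrrc39 on the opposite strand, whose own MYC difference at 200 µM was -0.61. Trmt44 stood at 268 and 244 against 226, 196 and 212 (log2 0.28, adjusted p = 0.017), a call lost without replicate 2 of MYC high (0.159) or of MYC low at 200 µM (0.0757). Its value at 10 µM (-0.17, adjusted p = 0.104) passed without replicate 3 of MYC low at 10 µM (0.045). Tarbp1 stood at 930 and 919 against 694, 686 and 713 (log2 0.41, SE 0.060, adjusted p = 1.96e-07) and at 840, 766 and 866 against 786, 804 and 702 at 10 µM (0.11, adjusted p = 0.067). The value at 10 µM passed without replicate 2 of MYC high (0.0113) or of MYC low (0.03) and with edgeR (0.0429). All 3 fell with low methionine in MYC high cells, by -0.47, -0.51 and -0.17. The fall of Tarbp1 was lost without replicate 2 of MYC high at 200 µM (0.0636) or at 10 µM (0.0891). In MYC low cells Tarbp1 rose by 0.13 (adjusted p = 0.0401), which was lost without replicate 1 (0.083) or 2 (0.112) of MYC low at 200 µM or replicate 1 (0.14) or 2 (0.211) of MYC low at 10 µM, while Trmt13 (0.03) and Trmt44 (-0.07) did not pass.

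The response to low methionine differed between the MYC states for most members, as it did for most genes tested. The interaction passed for 24 of the 34 genes, 19 of them negative and 5 positive, against a background of 29.4% negative, 31% positive and 60.4% either way among all genes. The median interaction was -0.37 for the members and 0.01 for all genes. In the plot of responses, 10 members fell in both states (background 21.6%) and 4 rose in both (Bud23, Emg1, Trmt1l and Trmt2b, background 21.6%). Another 4 passed in opposite directions (background 6.75%), with Ftsj3, Tarbp1 and Trmt2a lower in MYC high and higher in MYC low cells, and Trmt112 the reverse. Those opposite calls rest on the small changes in MYC low cells that single libraries decide, as given for each gene above. With all libraries kept, these changes in MYC low cells also did not pass with DESeq2. The adjusted p was 0.0532 for Ftsj3, 0.0753 for Tarbp1, 0.0706 for Trmt2a and 0.0519 for Trmt112. For 6 members, Alkbh8, Mettl5, Mettl8, Tfb1m, Trmt11 and Trmt5, neither response passed.

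**Figure D4:**
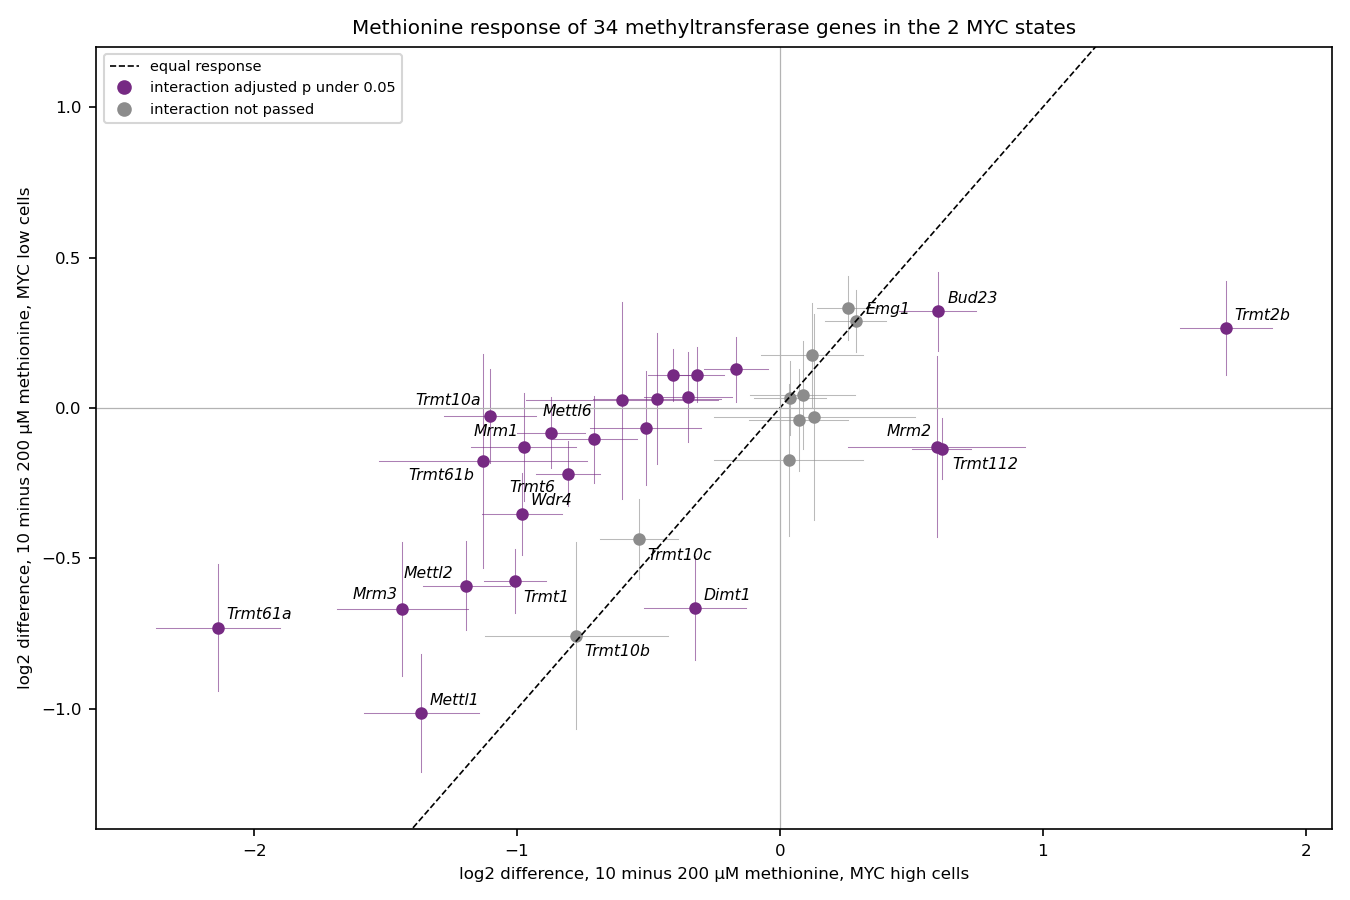
Log2 difference of 10 minus 200 µM methionine in MYC high cells (x axis) and in MYC low cells (y axis) for the 34 genes, with 95% intervals. Purple points passed the interaction test and the dashed line marks equal responses. Trmt61a (-2.14 and -0.73) and Trmt2b (1.70 and 0.27) lie farthest from the line, and Trmt10b and Emg1 lie on it.

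Further genes of the pathway were read from lists written with the members. Of 15 other tRNA and rRNA methyltransferases and partners, 14 were tested, and at 200 µM 5 were higher and 4 lower in MYC high libraries (median log2 0.22, background 36.8% higher and 37.6% lower). Fbl, the ribose methyltransferase of small nucleolar ribonucleoproteins, was higher by 1.24 at 200 µM and 1.08 at 10 µM, and Trmo, a tRNA methyltransferase with 20.4 to 75.5 counts as group means, by 1.75 and 1.05. Wdr6 (-1.38) and Fdxacb1 (-0.96) were lower at 200 µM. In MYC high cells 5 of the 14 rose and 6 fell with low methionine (background 37.9% each), led by Wdr6 (2.49) and Fdxacb1 (1.46) upward and Trmo (-0.77) downward. Of 49 other modification genes, most of which transfer no methyl group, 48 were tested. At 200 µM 33 were higher and 4 lower (median 0.64, background 36.8% and 37.6%), and at 10 µM 33 were higher and 6 lower (median 0.46, background 35.7% and 35.8%). Dkc1, the pseudouridine synthase of small nucleolar ribonucleoproteins, led at 200 µM (1.85), followed by Qtrt1 of queuosine synthesis (1.56). Low methionine lowered 25 and raised 11 of the 48 in MYC high cells (median -0.25, background 37.9% each), with Yrdc, which starts the threonylcarbamoyl modification of tRNA, at -1.85 and Dus4l, a dihydrouridine synthase, at -1.46, and with Osgepl1 at 1.38 and Lage3 at 0.83. In MYC low cells 24 fell and 5 rose (median -0.19, background 29.9% and 29.4%), and Yrdc (-1.17) and Dus4l (-1.07) led there as well.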

How the data were processed

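The table holds, for 11 libraries of polyadenylated RNA, normalized counts, a signal per gene that the authors deposited after dividing gene counts by a size factor per library. Per the submitters' processing notes, FastQC, fastp, STAR, SAMtools, HTSeq, DESeq2 and the build GRCm39 were used. Versions, annotation and strand setting were, in the sources used here, not given, so 18 members that share exonic bases with a gene on the opposite strand may share reads with it, and 7 of them share over 10%. All values (100%, within 0.001) were whole multiples of 1 step per library, from which reads were recovered. Columns of other samples numbered 0. Symbols, exonic lengths and overlaps came from GENCODE M21 (GRCm38). Symbols matched 52083 of 55416 identifiers.

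Genes with a mean of at least 10 were tested on log2 of the value plus 1, which understates changes of low genes, with limma 3.58.1 in R 4.3.3 (1 mean per group, trend, spread pooled over the 4 groups, 7 residual and 29 prior degrees of freedom). P-values were adjusted by Benjamini-Hochberg over all genes, and intervals are at 95%. Pooling takes the MYC high group at 200 µM, with its 2 libraries, to vary as the other groups do. Its replicate 1 was not analysed here. SE is limma's for a log2 difference. Alternatives were edgeR 4.0.16 and DESeq2 1.42.0 on recovered reads, other pseudocounts, filters and scalings, a replicate block and leaving out each library. Scripts were tested on simulated data. All members are named by rule, and other pathway genes by the largest differences or as partners of a member. Members and lists were chosen with earlier results of these data known.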

Additional observations from a re-analysis of the deposited data

Results flagged for a closer look

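The methionine response differed between the MYC states for 24 of the 34 genes by limma's interaction term, which also passed for 60.4% of all genes tested, so the count is near the background. The values are log2 responses, MYC high minus MYC low. Among the rRNA enzymes and the activator, the interaction was 0.34 for Dimt1, 0.28 for Bud23, -0.51 for Ftsj3 and 0.75 for Trmt112. For the mitochondrial rRNA enzymes it was -0.85 for Mrm1, 0.73 for Mrm2, -0.77 for Mrm3 and -0.60 for Tfb2m. For the enzymes of the T loop, the ninth position and the variable loop it was -0.59 for Trmt6, -1.41 for Trmt61a, -0.95 for Trmt61b, -1.08 for Trmt10a, -0.35 for Mettl1 and -0.63 for Wdr4. It was -0.43 for Trmt1, -0.43 for Trmt2a and 1.43 for Trmt2b. In the anticodon loop it was -0.63 for Trmt12, -0.38 for Ftsj1, -0.60 for Mettl2 and -0.79 for Mettl6, and for the remaining ribose methyltransferases it was -0.50 for Trmt13, -0.44 for Trmt44 and -0.30 for Tarbp1. The 2 MYC high libraries at 200 µM enter every one of these values. With DESeq2 the interactions of Mettl1 (adjusted p = 0.0662) and Dimt1 (0.0554) did not pass. The interaction of Mettl1 (adjusted p = 0.0353) was lost without replicate 2 of MYC high (0.293) or replicate 2 (0.0573) or 3 (0.102) of MYC low at 200 µM, and without replicate 2 of MYC high (0.091) or replicate 2 (0.0809) or 3 (0.0735) of MYC low at 10 µM. That of Dimt1 was lost without replicate 1 of MYC low at 200 µM (0.0644), that of Trmt12 was lost without replicate 3 of MYC high at 200 µM (0.0851) or replicate 1 of MYC low at 10 µM (0.128), that of Trmt13 without replicate 3 of MYC high at 200 µM (0.0644), and that of Bud23 without replicate 3 of MYC low at 200 µM (0.0547).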

How the results depend on the processing

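Over 170 member differences and their alternatives, 3461 of 3536 values kept their side of the threshold, 60 lost and 15 gained a call, and none that passed changed sign. Changes of sign among values that did not pass were not counted. With quantile normalization before limma, Tfb1m (adjusted p = 0.0267), Trmt12 (0.0152) and Mettl8 (0.0462) passed as higher in MYC high at 200 µM. Tarbp1 passed as higher at 10 µM (0.0478). The fall of Tarbp1 in MYC high cells (0.106) and the interaction of Bud23 (0.0541) were lost. With the replicate block all 170 member calls were the same (24 higher and 2 lower at 200 µM). Deviations of same-numbered libraries from their group means had correlations of -0.049 to 0.0257, and those of different-numbered ones -0.0464 to 0.049. No shared effect of the replicate number was seen, but this cannot show whether same-numbered libraries were prepared together. The count of members lower in MYC high at 10 µM (1) was 0 with DESeq2, and 0 to 2 when 1 library was left out. The count that rose with low methionine in MYC low cells (7) was 4 without the filter, where more genes are tested, 4 with DESeq2, and 4 to 7 when 1 library was left out. For DESeq2 the cause was not tested. Without the filter, limma also lost the MYC calls at 10 µM of Tfb1m (adjusted p = 0.0556), Trmt6 (0.0652) and Mettl2 (0.0651). The interactions of Mettl1 (0.0768) and Trmt12 (0.0649) were lost as well. So were the MYC low responses of Ftsj3 (0.0574), Tarbp1 (0.0922), Trmt2a (0.0507) and Trmt112 (0.0522). Without 1 library, members higher in MYC high numbered 23 to 24 at 200 µM and 19 to 21 at 10 µM, and members that fell numbered 21 to 22 in MYC high and 10 to 11 in MYC low cells. Leaving out a library of MYC high cells at 200 µM leaves 1, which is then assumed to vary like the other groups. Depth limits genes near or under 100 counts, such as Tfb1m, Trmt12 and Trmt10b.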
